A study of Mus musculus with 9 samples.

Results

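The genes described are 10 transcription factors known for driving or marking mesenchymal transition: Twist1, Twist2, Tcf4, Snai1, Snai2, Zeb1, Zeb2, Prrx1, Sox4, and Sox11. They were chosen by symbol in the deposited gene table, which lists 43346 genes, and each symbol named 1 row of it. The libraries came from Col1a1-GFP mice, which carry green fluorescent protein under a collagen I promoter. Per the study's methods these were male mice on an FVB background. The 4 aged sham mice received intratracheal saline and the 5 aged bleo mice received intratracheal bleomycin, an agent that injures the alveolar epithelium and leads to lung fibrosis. All were aged, with 72 weeks in the sample labels and 18 months in the series text, and lungs were taken 30 days later. Cells that were GFP+, CD45-, CD31-, and EpCAM- were sorted, 1 mouse to a library. The reporter therefore selects for cells with an active collagen I promoter, though leukocyte transcripts were also found, as given below. A change in a bulk library cannot tell a different number of cells of some kind from a different amount of RNA per cell.

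Epithelial-mesenchymal transition is the process by which epithelial cells lose their junctions and acquire a migratory, matrix-producing state. Most of its regulators are also part of the normal program of cells that are mesenchymal from the start, such as lung fibroblasts. Twist1 and Twist2 are basic helix-loop-helix (bHLH) proteins that bind the E-box (CANNTG) as dimers with E proteins, of which Tcf4 encodes 1. The Snail proteins (Snai1 and Snai2) and the ZEB proteins (Zeb1 and Zeb2) are zinc finger repressors that favor the E-box CAGGTG and silence epithelial genes such as Cdh1. Prrx1 is a paired-type homeobox factor of the limb bud and of connective tissue, and Sox4 and Sox11 are SoxC factors with an HMG box that are active in progenitors and in tissue remodeling.

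Counts summed to between 49921946 and 62370512 in the aged sham libraries and to between 53833507 and 68260600 in the aged bleo libraries, so that the 3 counts that a count of 0 allows were worth 0.0409 to 0.0605 CPM, the count scaled to a common library size. Such limits cover counting error only. No pair of libraries was a duplicate. Within groups, the chi-square per degree of freedom between pairs, which is near 1 for sampling noise, was 30.9 to 468. The pairs that set aged bleo 4 or 5 against aged bleo 1 to 3 lay between 158 and 468, while those among aged bleo 1 to 3 lay between 34.1 and 76.3. A suffix in the library names is 4 throughout aged sham and for aged bleo 4, but 5 for the first 3 injured libraries and 6 for the last. Its meaning is not given in the sources used here, and it cannot be told apart from the treatment except through aged bleo 4.

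The sorted cells carried fibroblast RNA. Summed over 7 fibroblast genes (Col1a1, Col1a2, Col3a1, Dcn, Lum, Pdgfra, and Mgp), the level was 26030 to 31440 CPM in aged sham and 58280 to 76270 CPM in aged bleo. The defining markers of the cells that the sort removed were not at 0 but low for epithelial and endothelial cells and higher for leukocytes, with means in aged sham and aged bleo of 0.59 ± 0.14 and 0.67 ± 0.32 CPM for Epcam, 1.67 ± 0.65 and 1.64 ± 0.42 CPM for Cdh5, 6.13 ± 0.51 and 4.35 ± 1.45 CPM for Pecam1, and 87.0 ± 59.1 and 65.0 ± 66.3 CPM for the CD45 gene Ptprc (SD, n = 4 and 5). Longer lists for these cells gave higher sums. For 9 endothelial genes the sum was 166 to 205 CPM in aged sham, mostly from Tek, and 29.3 to 74.0 CPM in aged bleo. For 9 epithelial genes it was 16.7 to 113 and 20.9 to 65.1 CPM. A list of 10 macrophage genes summed to 272 to 734 CPM in aged sham and 626 to 2227 CPM in aged bleo, with its highest level in aged bleo 4, and 5 of its 10 genes were called higher. All 7 cell cycle genes of a further list were called higher in aged bleo. Their sum was 9.06 to 55.3 CPM in aged sham and 35.5 to 280 CPM in aged bleo. Beside both counts, 12.3% of all genes tested were called higher. The part of these cells in the results below was not tested, but each count of called factors is also given with aged bleo 4 and aged sham 4 left out, which had the highest leukocyte sums of their groups. Leaving them out did not make the groups even. The macrophage sum was still 272 to 393 CPM in the other aged sham libraries and 626 to 1059 CPM in the other aged bleo libraries.

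Promoter sequences are shown for the factors with the largest changes, Snai1 and Sox4, which were higher, and Twist2, the 1 factor called lower, so that the E-boxes that members of these families read can be seen in place. Each is the 250 bases before the gene start in RefSeq (GRCm38.p6), written 5′ to 3′ on the strand of the gene, with E-boxes (CANNTG, which reads the same way on both strands) in capitals. The Snai1 window is chr2:167537945-167538194 (plus strand), the Sox4 window chr13:28953700-28953949 (minus strand), and the Twist2 window chr1:91801211-91801460 (plus strand). The last bases of the Sox4 window fall inside the gene as the deposited table has it.
Snai1: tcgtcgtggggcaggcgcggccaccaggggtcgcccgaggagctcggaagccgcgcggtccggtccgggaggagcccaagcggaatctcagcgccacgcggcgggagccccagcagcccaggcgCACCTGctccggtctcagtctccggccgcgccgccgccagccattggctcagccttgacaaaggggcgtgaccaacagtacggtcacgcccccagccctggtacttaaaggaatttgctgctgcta
Sox4: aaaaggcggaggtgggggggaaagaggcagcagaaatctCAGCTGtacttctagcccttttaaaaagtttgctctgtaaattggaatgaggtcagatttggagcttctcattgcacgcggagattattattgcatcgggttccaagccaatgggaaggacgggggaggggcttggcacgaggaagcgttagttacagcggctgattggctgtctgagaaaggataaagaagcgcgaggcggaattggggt
Twist2: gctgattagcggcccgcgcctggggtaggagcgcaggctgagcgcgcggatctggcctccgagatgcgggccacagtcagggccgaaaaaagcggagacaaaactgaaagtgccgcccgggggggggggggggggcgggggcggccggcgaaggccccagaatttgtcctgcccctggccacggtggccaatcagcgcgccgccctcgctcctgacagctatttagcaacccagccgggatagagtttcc

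The Snai1 window held 1 E-box, CACCTG, the reverse complement of the CAGGTG that Snail and ZEB proteins favor, beginning 126 bases before the start. The Sox4 window held 1 E-box of other letters, CAGCTG, beginning 211 bases before the start, and the Twist2 window held none. Of 32851 mouse promoter windows of this length, 66.2% held an E-box and 17.2% held CAGGTG or CACCTG. The Sox motif ACAAAG, searched on both strands, was found in the Snai1 window 69 bases before the start and in 16.5% of all windows, and ACAATG, also searched on both strands, was found in none of these 3 windows and in 10.7% of all windows. RefSeq windows were read for 7 of the 10 factors. Those of Twist1 and Prrx1 and the 4 windows of Zeb2 held no E-box, and the window of Sox11 held CAGCTG and CATATG, beginning 210 and 32 bases before the start. A match is a description of these letters, not a binding site.

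After bleomycin challenge, the 10 factors did not move as a group. Snai1, Sox4, Snai2, and Tcf4 were higher, Twist2 was lower, and Twist1, Zeb1, Zeb2, and Prrx1 did not pass the thresholds, which were an FDR under 0.10 (edgeR's quasi-likelihood test with Benjamini-Hochberg adjustment over all genes tested) and a fold change over 1.5. Sox11 was too low to be tested. Of the 9 factors tested, 5 were called in either direction, where 23.8% of the 16877 genes tested were called. The 4 called higher stood against 12.3% of all genes and the 1 called lower against 11.5%. An FDR under 0.10 at any fold change was reached by 7 of the 9, and by 44.8% of all genes. In 6 of the 9, no aged bleo library overlapped with the range of the aged sham libraries, 4 lying above and 2 below, and the same was seen in 32.2% of all genes. The median log2 fold change of the 9 factors was 0.17 and that of all genes 0.01, and the median of the absolute log2 fold change was 0.74 and 0.29, respectively. Without aged bleo 4 and aged sham 4, 4 factors were again called higher and 1 lower, and so they were with aged bleo 1 to 3 as the injured group.

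**Figure D1:**
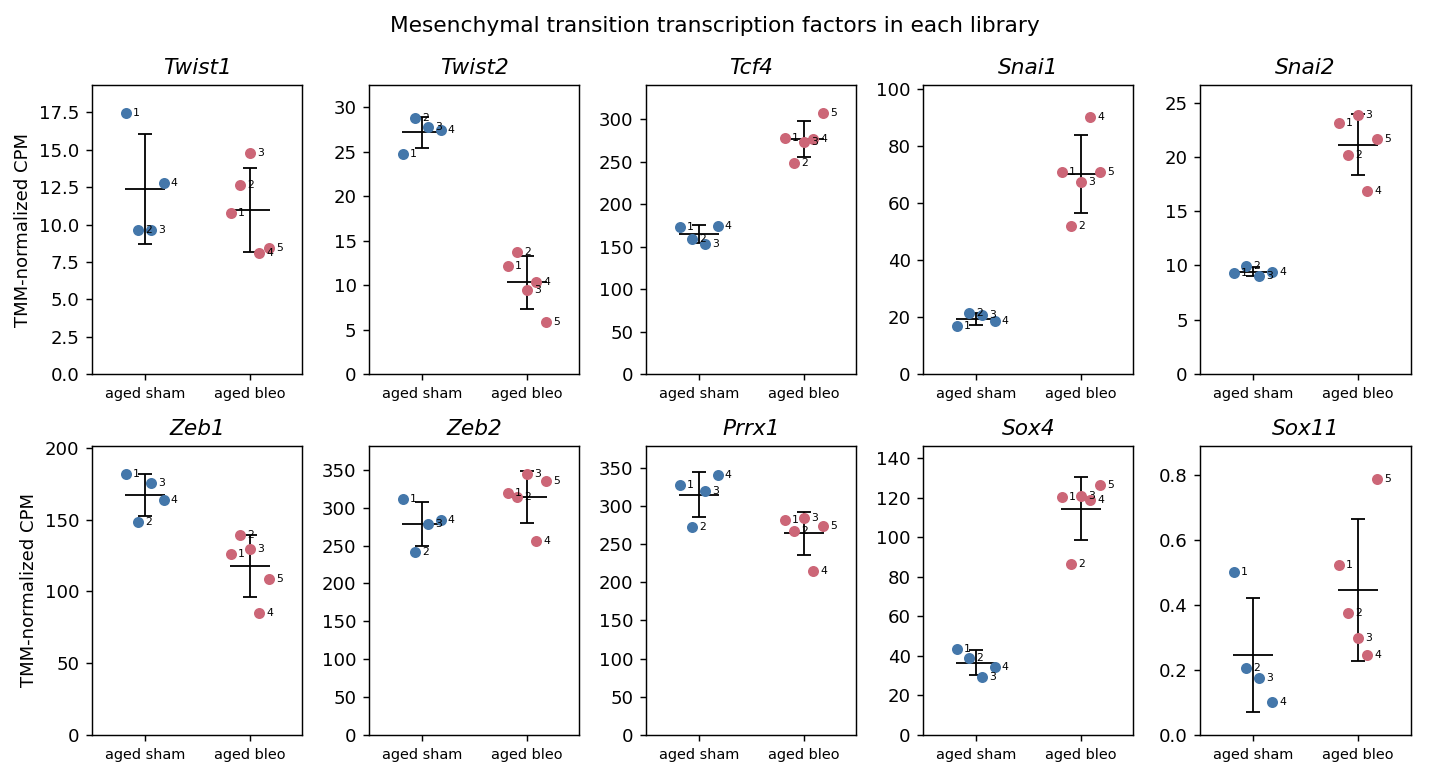
TMM-normalized CPM (vertical axes, each starting at 0) of the 10 factors in the 4 aged sham (blue) and 5 aged bleo (red) libraries. Points are libraries with their replicate numbers, and the lines give the mean and SD. Snai1, Snai2, Sox4, and Tcf4 lie above the whole aged sham range in all 5 aged bleo libraries, while Twist2 and Zeb1 lie below it.

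**Figure D2:**
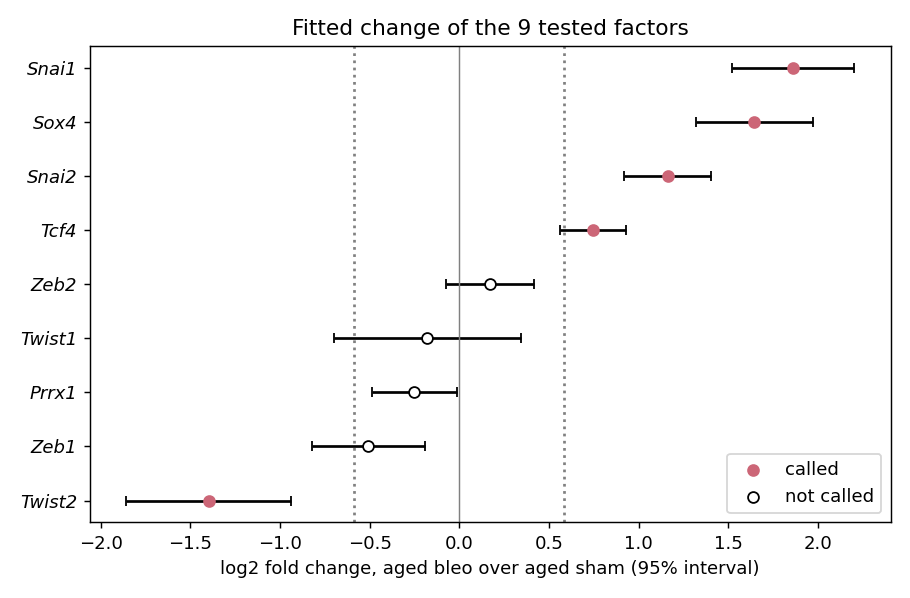
Log2 fold change of aged bleo over aged sham (horizontal axis) for the 9 factors tested, with 95% intervals of the edgeR fit. Filled points were called, and the dotted lines mark the 1.5-fold threshold. The changes run from -1.40 for Twist2 to 1.86 for Snai1.

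Levels between factors were compared per length, in FPKM. In aged sham, Prrx1 was the most abundant at 11.9 ± 0.98 FPKM (SD, n = 4), above every other factor in all 4 libraries. Zeb1 (6.94 ± 0.59), Zeb2 (5.95 ± 0.58), Tcf4 (5.65 ± 0.28), and Snai1 (5.00 ± 0.59 FPKM) followed, and neighbors among these 4 overlapped in range. Twist2 (3.59 ± 0.26), Twist1 (3.20 ± 0.94), and Sox4 (3.20 ± 0.54 FPKM) formed a lower tier without separation among neighbors, below which came Snai2 at 1.95 ± 0.10 FPKM and Sox11 at 0.0124 ± 0.0088 FPKM. The breaks in this order, where the ranges of neighbors did not overlap, lay below Prrx1, Snai1, Sox4, and Snai2.

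In aged bleo, the order was different. Snai1, which ranked below 4 other factors in aged sham, was the most abundant factor at 18.7 ± 4.14 FPKM (SD, n = 5), with no overlap with the next. Sox4 (10.3 ± 1.56), Prrx1 (10.3 ± 0.91), and Tcf4 (9.73 ± 0.88 FPKM) followed, and neighbors among these 3 overlapped in range. Then came Zeb2 (6.85 ± 0.62), which lay above Zeb1 (4.99 ± 0.80 FPKM) without overlap. Zeb1, Snai2 (4.46 ± 0.51), and Twist1 (2.90 ± 0.67 FPKM) overlapped as neighbors, and Twist2 (1.40 ± 0.39 FPKM) and Sox11 (0.0230 ± 0.0114 FPKM) were the lowest, each apart from the factor above it. Summed over the 10 factors, the level was 45.0 to 50.3 FPKM in aged sham and 61.4 to 72.4 FPKM in aged bleo, and Prrx1, Zeb1, Zeb2, and Tcf4 together made up 64.2% of it in aged sham and 45.7% in aged bleo. These levels rest on the gene lengths that the authors used.

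**Figure D3:**
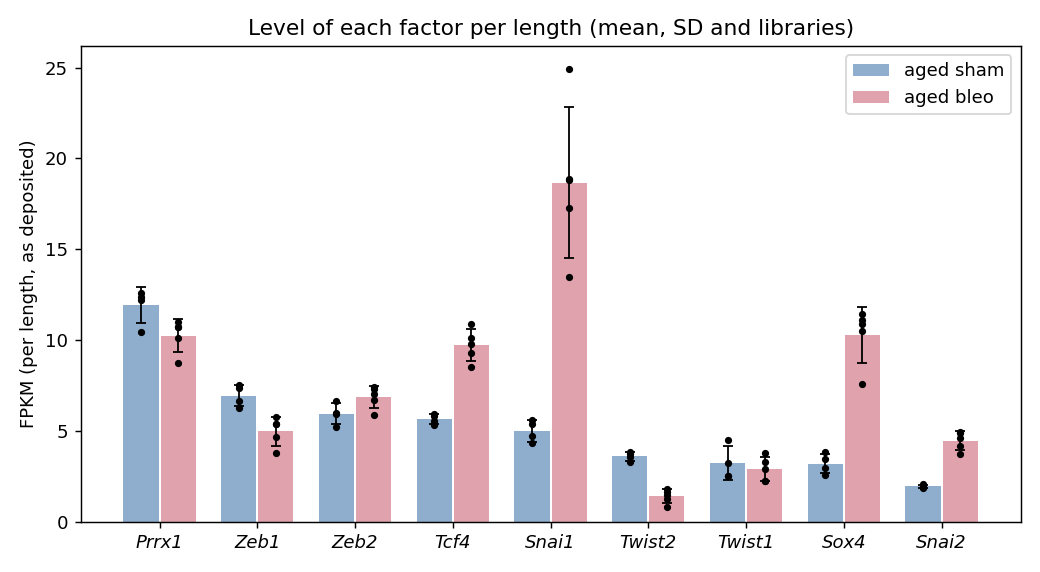
Deposited FPKM (vertical axis, starting at 0) of 9 factors in the order of their aged sham level. Bars are group means with SD, points are libraries, aged sham in blue (n = 4) and aged bleo in red (n = 5), and Sox11 (at most 0.041 FPKM) is left out. Snai1 moves from 5.00 to 18.7 FPKM and becomes the most abundant, and Zeb1 and Zeb2 exchange their order per length.

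The bHLH factors went in different directions. Twist2 (ENSMUSG00000007805, chromosome 1, 91801461 to 91848028, GRCm38), a repressor that keeps mesenchymal progenitors undifferentiated, was at 24.7, 28.8, 27.8, and 27.4 CPM in aged sham 1 to 4 and at 12.2, 13.7, 9.41, 10.4, and 5.88 CPM in aged bleo 1 to 5. The aged sham libraries lay close together and every aged bleo library was below all of them, with aged bleo 5 the lowest. The means were 27.2 ± 1.74 CPM (SD, n = 4) and 10.3 ± 2.97 CPM (SD, n = 5), a 2.64-fold lower level after injury (log2 fold change -1.40, standard error 0.20, edgeR FDR 0.00136).

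Its paralog Twist1 (ENSMUSG00000035799, chromosome 12, 33957671 to 33959817) was at 17.4, 9.63, 9.64, and 12.8 CPM in the sham libraries and at 10.8, 12.6, 14.8, 8.12, and 8.46 CPM in the injured libraries. The groups overlapped, and aged sham 1 was the highest of all 9 libraries. The log2 fold change was -0.18 (standard error 0.23, edgeR FDR 0.585), with a 95% interval of -0.70 to 0.35, so that a Twist1 level lower by 1.5-fold could not be told from no difference. Without aged sham 1 the log2 fold change turned to 0.03, and with aged bleo 1 to 3 as the injured group it was also 0.03.

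Tcf4 (ENSMUSG00000053477), which encodes the E protein E2-2 and is distinct from the Wnt effector that shares its name in older literature, was at 174, 159.6, 154, and 174 CPM in the sham libraries and at 278, 249, 273, 276, and 308 CPM in the injured libraries. No libraries overlapped, and the spread was small within either group. The means were 165 ± 10.2 CPM (SD, n = 4) and 277 ± 20.9 CPM (SD, n = 5), a 1.675-fold higher level (log2 fold change 0.74, standard error 0.08, edgeR FDR 2.96e-04). Its 95% interval, 0.56 to 0.93, reached just below the 1.5-fold threshold of 0.585, and at a stricter threshold of 2-fold it was not called.

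Both Snail genes rose. Snai1 (ENSMUSG00000042821, chromosome 2, 167538195 to 167542814), the repressor that gives the family its name, was at 16.7, 21.3, 20.6, and 18.6 CPM in the sham libraries and at 70.6, 52.0, 67.2, 90.1, and 70.6 CPM in the injured libraries. Every aged bleo library lay far above the aged sham range, aged bleo 4 being the highest and aged bleo 2 the lowest. The means were 19.3 ± 2.08 CPM (SD, n = 4) and 70.1 ± 13.6 CPM (SD, n = 5), and the 3.63-fold change (log2 fold change 1.86, standard error 0.15, edgeR FDR 6.51e-05) was the largest of the 9 factors tested. Without aged bleo 4 and aged sham 4, whose leukocyte sums were the highest of their groups, the log2 fold change was 1.72. The macrophage sums of the libraries left still differed between the groups.

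Snai2 (ENSMUSG00000022676, chromosome 16, 14705852 to 14709395), which encodes Slug, was at 9.34, 9.98, 9.02, and 9.42 CPM in the sham libraries and at 23.1, 20.2, 23.9, 16.8, and 21.6 CPM in the injured libraries. The aged sham libraries were nearly level and the aged bleo libraries were all above them, with aged bleo 4, the highest for Snai1, being the lowest here. The means of 9.44 ± 0.40 CPM (SD, n = 4) and 21.1 ± 2.79 CPM (SD, n = 5) differed 2.24-fold (log2 fold change 1.16, standard error 0.11, edgeR FDR 1.26e-04).

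The ZEB factors changed less than the Snail genes. Their mean CPM was higher in either group, but CPM is not scaled by length. Per length, Snai1 was above both ZEB factors in aged bleo. Zeb1 (ENSMUSG00000024238) was at 181, 149, 175, and 164 CPM in the sham libraries and at 126, 139, 129.8, 84.6, and 109 CPM in the injured libraries. Every aged bleo library was below every aged sham library, by a narrow margin for aged bleo 2 and by the most for aged bleo 4. The means were 167 ± 14.5 CPM (SD, n = 4) and 118 ± 21.5 CPM (SD, n = 5). The log2 fold change of -0.51 (standard error 0.14, edgeR FDR 0.0210) passed the FDR but, at 1.42-fold, not the fold threshold, and its 95% interval of -0.82 to -0.19 lay on both sides of that threshold.

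Zeb2 (ENSMUSG00000026872, chromosome 2, 44983634 to 45117395) was at 311, 241, 279, and 284 CPM in the sham libraries and at 319, 314, 344, 256, and 336 CPM in the injured libraries. Aged bleo 4 fell inside the aged sham range and the other aged bleo libraries above it. The log2 fold change of 0.17 (standard error 0.11, edgeR FDR 0.254) had a 95% interval of -0.08 to 0.42, which holds no change of 1.5-fold.

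Prrx1 (ENSMUSG00000026586, chromosome 1, 163245119 to 163313710) was at 327, 272, 319.5, and 340.1 CPM in the sham libraries and at 281, 267, 284, 215, and 274 CPM in the injured libraries. Aged sham 2 lay among the aged bleo libraries, and aged bleo 4 was apart from and below all others. The means were 315 ± 29.7 CPM (SD, n = 4) and 264 ± 28.3 CPM (SD, n = 5), with a log2 fold change of -0.25 (standard error 0.11, 95% interval -0.49 to -0.01, edgeR FDR 0.0909) that stayed short of the fold threshold. Without aged bleo 4 and aged sham 4 the FDR was 0.211.

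Of the SoxC factors, Sox4 rose. Sox4 (ENSMUSG00000076431, chromosome 13, 28948919 to 28953713), a gene without introns, was at 43.7, 39.0, 29.4, and 34.3 CPM in the sham libraries and at 120.4, 86.5, 121, 119, and 126 CPM in the injured libraries. Aged bleo 2 was well below the other 4 injured libraries and still above every aged sham library. The means were 36.6 ± 6.14 CPM (SD, n = 4) and 115 ± 16.0 CPM (SD, n = 5), a 3.13-fold difference (log2 fold change 1.65, standard error 0.15, edgeR FDR 9.79e-05).

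Sox11 (ENSMUSG00000063632, chromosome 12, 27334264 to 27342574) was close to the limit of detection, with 31, 12, 9, and 5 counts in aged sham and 28, 21, 16, 18, and 43 counts in aged bleo. Its average count of 20.3 was below the minimum of 25 required for a test. At 0.50, 0.21, 0.18, and 0.10 CPM in aged sham and 0.52, 0.37, 0.30, 0.25, and 0.79 CPM in aged bleo, the groups overlapped through aged sham 1. With no filter on low counts the log2 fold change was 0.85 (standard error 0.49, edgeR FDR 0.275).

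For Twist, Snail, and ZEB, the balance between paralogs was different in injured fibroblasts. It was measured in each library as the log2 ratio of FPKM + 0.1 and tested by a two-sided exact permutation test, in which 4 against 5 libraries allow no p below 0.0159, and p-values were adjusted over the 4 ratios computed. The differences for these 3 pairs each reached that value (exact permutation p = 0.0159). Adjustment left it unchanged only because the ratio of Sox11 over Sox4, which is no measure of balance as described below, was at the same value. Twist1 over Twist2 was -0.20 ± 0.48 (SD, n = 4) in aged sham, from -0.59 to 0.46, and 1.02 ± 0.42 (SD, n = 5) in aged bleo, from 0.59 to 1.55. The paralogs were thus at like levels per length in aged sham, while Twist1 was above Twist2 per length in all 5 aged bleo libraries. The difference of 1.22 came with the lower Twist2. The order within the pair depends on the gene lengths used, 1616 bases for Twist1 and 3174 for Twist2. In CPM, Twist2 was above Twist1 in all 4 aged sham libraries and in aged bleo 1, 2, and 4. The difference of the ratio between the groups was 1.28 on the CPM scale. Some Twist2 exon bases are shared with another gene, as given below.

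Snai1 over Snai2 was 1.31 ± 0.15 (SD, n = 4) in aged sham and 2.02 ± 0.41 (SD, n = 5) in aged bleo, so that Snai1 exceeded Snai2 in all 9 libraries and by 0.71 more after injury. Aged bleo 4 had the widest ratio, 2.71, and the other 4 injured libraries lay between 1.67 and 2.01. Zeb1 over Zeb2 was 0.22 ± 0.06 (SD, n = 4) in aged sham and -0.46 ± 0.18 (SD, n = 5) in aged bleo, a difference of -0.68. Per length, Zeb1 was above Zeb2 in all 4 aged sham libraries and below it in all 5 aged bleo libraries. This order rests on the gene lengths used, 10112 bases for Zeb1 and 19658 for Zeb2. In CPM, which is not scaled by length, Zeb2 was above Zeb1 in all 9 libraries. The difference of the ratio between the groups was -0.69 on the CPM scale. Sox11 over Sox4 was -4.87 ± 0.17 (SD, n = 4) and -6.39 ± 0.24 (SD, n = 5), but Sox11, at no more than 0.041 FPKM, lay below the 0.1 added to each value, so that this ratio follows Sox4 and is no measure of the balance. On the CPM scale the difference was -0.79 (exact permutation p = 0.143).

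**Figure D4:**
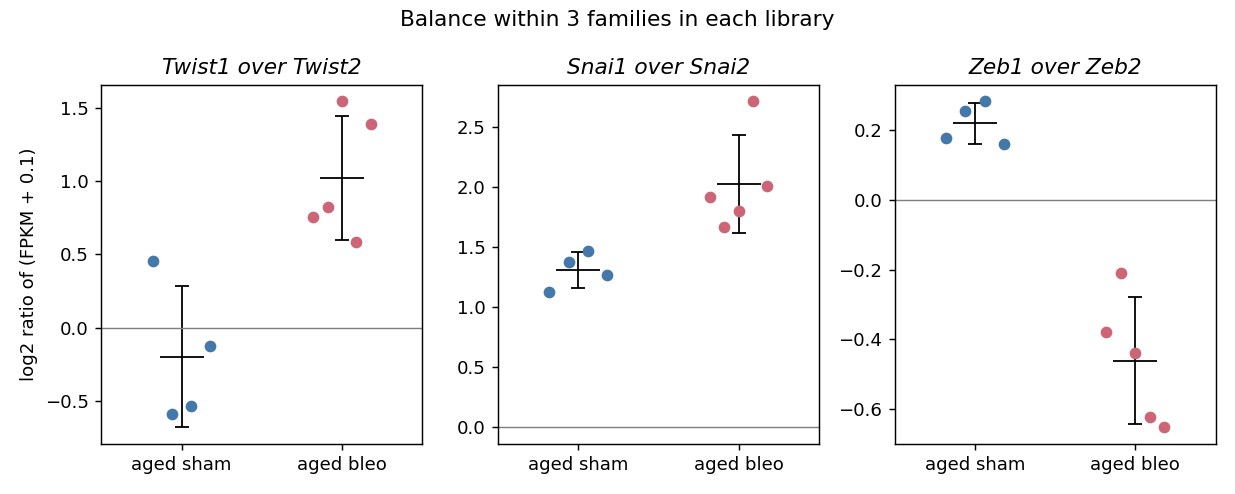
Log2 ratio of FPKM + 0.1 (vertical axes) for 3 pairs of paralogs in each aged sham (blue, n = 4) and aged bleo (red, n = 5) library, with mean and SD. The grey line at 0 marks equal levels per length. The groups are apart in all 3 pairs, and Zeb1 over Zeb2 is above 0 in every aged sham library and below 0 in every aged bleo library.

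Twist2 and Sox4 share exon bases with non-coding genes on the opposite strand. The library kit does not mark strand, so reads in the shared bases cannot be told apart. Whether such reads were counted for both genes is not given in the sources used here. The values of these non-coding genes therefore cannot be taken as independent of the factors. For Sox4, the lincRNA Gm26735 has 2616 of its 2649 exon bases inside Sox4 exons (GENCODE M21) and held a count equal to 64.6% of that of Sox4. It was at 23.9 ± 3.62 CPM in the sham libraries and 73.8 ± 12.7 CPM in the injured libraries (log2 fold change 1.63, edgeR FDR 1.53e-04). The antisense gene Gm29100 has 1477 of its 4410 exon bases inside Twist2 exons and a count of 53.5% of that of Twist2. It was at 14.4 ± 0.87 and 5.60 ± 1.92 CPM (log2 fold change -1.37, edgeR FDR 0.00311). For Zeb2 and Zeb1 the overlapping genes were small beside the factor, as Zeb2os had 3.23% of the count of Zeb2 (log2 fold change 0.20, edgeR FDR 0.257) and Gm10125 had 3.17% of that of Zeb1 (log2 fold change -0.38, edgeR FDR 0.0567).

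The genes most like each factor were sought among all genes tested, by the root mean square difference of centred log2 CPM over the 9 libraries. The nearest to Sox4 was Gm26735 (0.0595) and the nearest to Twist2 was Gm29100 (0.0688), the genes that share their exons. After these, Olfml3 (0.107) and Sparc (0.120), both of which encode secreted matrix proteins, were nearest to Sox4, and Kbtbd11 (0.145) and Smpdl3a (0.170) to Twist2. Snai1 was most like Kcnab3 (0.0908), Cav3 (0.105), and Gm22 (0.112), and Snai2 most like Sipa1l2 (0.0958), F2r (0.108), which encodes a thrombin receptor, and Il7 (0.110).

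Among the factors with smaller changes, Tcf4 was nearest to Bace1 (0.0614), Hs2st1 (0.0708), and Hexdc (0.0708), Zeb1 to Mpdz (0.0631), Mllt4 (0.0676), and Sept8 (0.0696), Zeb2 to Morc2a (0.0611), Msmp (0.0642), and Manea (0.0647), Prrx1 to AI987944 (0.0569), AV039307 (0.0578), and Sestd1 (0.0617), and Twist1 to Ttyh2 (0.106), Sdc4 (0.121), and Zfp551 (0.143). These values describe 9 libraries of 2 groups, and a gene that differs by the same amount between the groups is near for that reason alone.

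The E protein, Id, and other bHLH genes set beside the Twist genes also went in both directions. Of 12 such genes, 9 were tested, of which 1 was called higher and 3 lower, with a median log2 fold change of 0.04. Over all genes tested, 12.3% were called higher and 11.5% lower. Scx, Tcf21, and Msc belong to the other bHLH genes, and of the E protein and Id genes of this list only Id2 was called. Scx, the bHLH factor of tendon progenitors, averaged 1.47 ± 0.63 CPM in uninjured (SD, n = 4) and 5.77 ± 1.07 CPM in injured cells (SD, n = 5, log2 fold change 1.97, edgeR FDR 0.00162). Tcf21, a bHLH factor of lung interstitial fibroblasts, was at 106 ± 7.75 and 49.6 ± 18.8 CPM (log2 fold change -1.10, edgeR FDR 0.0121), with every aged bleo library below aged sham.

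The bHLH repressor Msc (log2 fold change -0.88, edgeR FDR 0.0240) and Id2, which encodes an inhibitor that binds E proteins (log2 fold change -0.63, edgeR FDR 0.00384), were lower too. Id1 (0.04, edgeR FDR 0.851) and Id3 (-0.37, edgeR FDR 0.137) were not called. Of the other E protein genes, Tcf12, named after its value was seen, was higher in every aged bleo library but short of the fold threshold (log2 fold change 0.56, edgeR FDR 0.00146).

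Of 9 relatives of the Snail, Prrx, and Sox factors, 6 were tested, with 2 called higher, 2 lower, and a median log2 fold change of -0.13. The shares of all genes tested were 12.3% higher and 11.5% lower. Sox12, the remaining SoxC gene, was at 4.20 ± 0.96 CPM in the sham libraries and 10.6 ± 2.18 CPM in the injured libraries (log2 fold change 1.34, edgeR FDR 0.00177). Prrx2, the paralog of Prrx1, was at 17.3 ± 2.01 and 27.4 ± 4.03 CPM (log2 fold change 0.66, edgeR FDR 0.00459). The SoxE genes Sox8 (log2 fold change -1.17, edgeR FDR 0.0336) and Sox9 (-1.04, edgeR FDR 0.0101) were lower. Snai3 was at no more than 0.12 CPM in any library and was not tested.

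Among 17 genes of corepressors and regulators through which Snail, Twist, and ZEB proteins act or are turned over, all were tested. Of these, 2 were called higher, near the 12.3% of all genes tested, and none lower, against 11.5% of all genes. The median log2 fold change was 0.24. An FDR under 0.10 was reached by 10 of the 17, 9 of them with higher values in aged bleo, and by 44.8% of all genes in either direction. Ajuba, a LIM protein that serves as a corepressor of Snail proteins, was at 5.78 ± 0.65 CPM in the sham libraries and 20.1 ± 2.12 CPM in the injured libraries (log2 fold change 1.80, edgeR FDR 2.17e-05). Pak1, a kinase that phosphorylates SNAI1, was at 8.71 ± 1.84 and 28.4 ± 11.1 CPM (log2 fold change 1.70, edgeR FDR 0.00319). The gene with an FDR under 0.10 and lower values, named after its value was seen, was Btrc (log2 fold change -0.41, edgeR FDR 0.00515), which encodes the ubiquitin ligase subunit that recognizes phosphorylated SNAI1.

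Most of the epithelial genes that these factors are known to repress were too low to be tested. Of 18 genes, 8 were tested, 1 was called higher and 1 lower, and the median log2 fold change was 0.30. The shares of all genes tested were 12.3% higher and 11.5% lower. Cdh1, which encodes E-cadherin and is the best known target of Snail and ZEB proteins, was at 0.89, 2.98, 2.28, and 2.94 CPM in the sham libraries and at 1.34, 3.45, 8.39, 11.7, and 3.11 CPM in the injured libraries (log2 fold change 1.30, standard error 0.62, edgeR FDR 0.129). It was highest in aged bleo 4 and 3, and the groups overlapped. Krt8, a keratin gene, was called higher at 1.49 ± 0.27 against 3.25 ± 0.77 CPM (log2 fold change 1.12, edgeR FDR 0.00457), and Dsp, which encodes desmoplakin, was called lower at 37.1 ± 6.59 against 8.37 ± 4.56 CPM (log2 fold change -2.15, edgeR FDR 0.00562).

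The mesenchymal genes gained in transition were mostly higher. Of 18 genes, 17 were tested, 11 were called higher and 2 lower, and the median log2 fold change was 0.85. Over all genes tested, 12.3% were called higher and 11.5% lower. The list was chosen with earlier results of these data known. Tnc, which encodes tenascin-C, was at 34.7 ± 10.3 CPM in the sham libraries and 2068 ± 735 CPM in the injured libraries (log2 fold change 5.90, edgeR FDR 2.32e-05). Postn (log2 fold change 2.32, edgeR FDR 1.31e-04), Cdh11, a mesenchymal cadherin gene (1.99, edgeR FDR 2.68e-05), and Sparc (1.72, edgeR FDR 1.11e-04) came next. The 2 genes called lower, named after their values were seen, were Tgfbi (log2 fold change -1.47, edgeR FDR 3.47e-04) and the receptor kinase gene Axl (-0.93, edgeR FDR 0.00164).

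The cadherin gene Cdh2, which is classically gained as Cdh1 is lost, was at 3.86 ± 1.47 and 2.90 ± 1.15 CPM (log2 fold change -0.42, edgeR FDR 0.391). Vim, which encodes vimentin, was at 2702 ± 104 and 2827 ± 589.8 CPM (log2 fold change 0.07, edgeR FDR 0.780). Neither was called, and the groups overlapped for both.

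**Figure D5:**
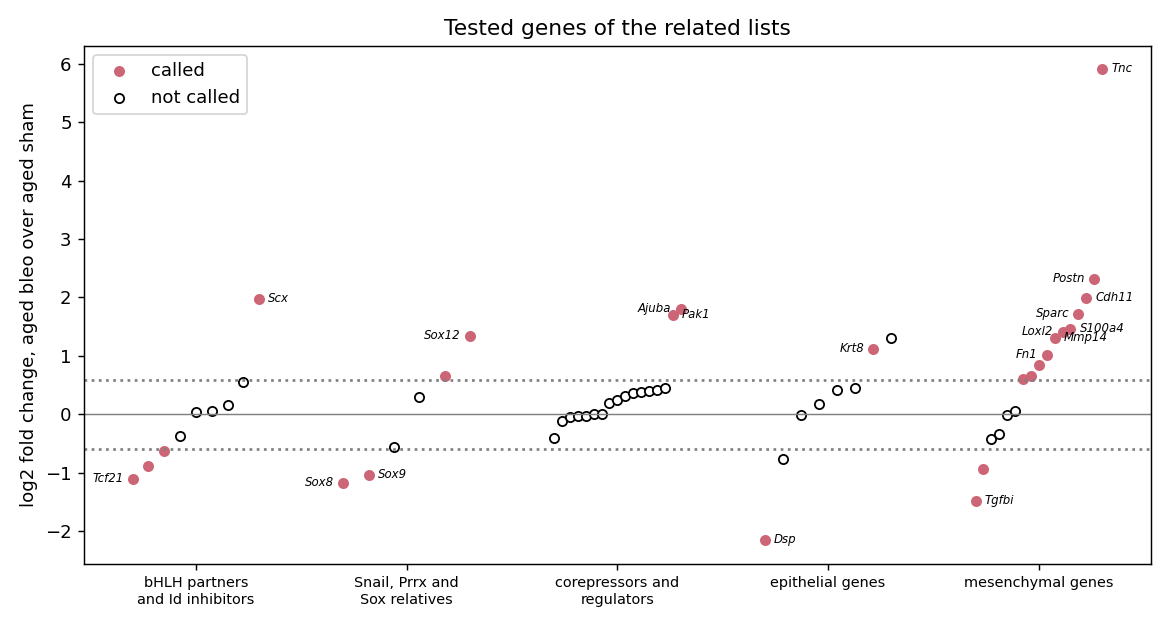
Log2 fold change of aged bleo over aged sham (vertical axis) for the tested genes of 5 lists related to the factors, sorted within each list. Filled points were called, open points were not, and the dotted lines mark the 1.5-fold threshold. Called genes that changed by over 1 are named. In the mesenchymal list 11 of 17 genes are called higher, and in the epithelial list 1 of 8, against 12.3% of all genes tested.

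Markers of other cells that could pass the gate were set beside these values. For the counts that follow, 12.3% of all genes tested were called higher and 11.5% lower. The summed level of 7 pan-leukocyte genes was 105 to 394 CPM in aged sham and 112 to 614 CPM in aged bleo, with 1 called higher, that of 7 neutrophil genes 170 to 1018 and 84.9 to 906 CPM, with none called by edgeR, and that of 7 lymphocyte and plasmacytoid dendritic cell genes 5.71 to 12.95 and 1.32 to 20.2 CPM, with 3 of 5 tested lower. The 9 epithelial genes summed to 16.7 to 113 and 20.9 to 65.1 CPM, with 1 called higher and 1 lower. None of the 5 mesothelial genes was called, at 27.6 to 79.4 and 32.5 to 118 CPM, with Msln at 7.76 ± 3.06 and 13.2 ± 5.47 CPM.

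Of 8 smooth muscle and pericyte genes, 1 was called higher and 3 lower, at 1517 to 2973 and 917 to 1922 CPM, and Myh11 was at 1377 ± 367 and 617 ± 292 CPM (log2 fold change -1.16, edgeR FDR 0.0412). The 9 endothelial genes summed to 166 to 205 and 29.3 to 74.0 CPM. Of the 8 tested, 2 were called higher and 1 lower, with a median log2 fold change of 0.04. The gene called lower was Tek, at 161 ± 12.9 and 28.9 ± 18.8 CPM (log2 fold change -2.48, edgeR FDR 0.00425), which made up most of the sum. Those called higher were Kdr, at 3.25 ± 0.56 and 4.97 ± 1.22 CPM (0.61, edgeR FDR 0.050), and Egfl7, at 1.01 ± 0.30 and 1.84 ± 0.67 CPM (0.88, edgeR FDR 0.050), and these 3 were named after their values were seen. Pecam1 and Cdh5 were not called. Beside the counts of both lists, 12.3% of all genes tested were called higher and 11.5% lower. The macrophage marker Adgre1 was at 4.45 ± 1.31 and 13.6 ± 10.1 CPM (log2 fold change 1.61, edgeR FDR 0.0418). None of the markers listed was at 0 in every library, and the part of such cells in the levels of the factors was not tested.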

How the data were processed

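Bulk RNA-Seq of 4 aged sham and 5 aged bleo libraries was used, and young mice are not analysed here. In a single table the authors deposited raw read counts and FPKM values of 43346 genes. Per the submitters' processing notes, reads were aligned with STAR 2.5.2b to mm10 (GRCm38) and counted with featureCounts (Subread). Whether counting used strand is not given in the sources used here, and the TruSeq v2 kit does not mark strand. The FPKM values deposited by the authors are scaled by the length of each gene and by a library total that was 2.27 to 2.42 times the sum of the counts. Of the gene identifiers shared with GENCODE M21, 78.9% had the same start and end.

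The 16877 genes whose counts averaged 25 or more were tested with edgeR 4.0.16 (glmQLFit and glmQLFTest, TMM, no covariate) in R 4.3.3, in place of the moderated test of the study's methods. FDR is the Benjamini-Hochberg adjusted p-value, and a call needed both FDR under 0.10 and a change of over 1.5-fold. Standard errors are the log2 fold change over the root of its F statistic. CPM is on the TMM scale. Ratios of FPKM + 0.1 were tested by exact permutation over libraries (SciPy 1.17.1). The tests were tried on simulated counts. Samples were grouped by their labels, and each library was from 1 mouse, so that the errors are between mice.

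The 10 factors, and 20 gene lists with 155 genes, were chosen with earlier results of these data known. All factors were named. Of each list up to 4 called genes with the largest changes were named, besides Cdh1, Cdh2, Vim, Id1, Id3, and the defining markers, and for each factor the 3 genes nearest in profile. Others were named after their values were seen. Alternatives were DESeq2 1.42.0, limma 3.58.1 on log2 CPM or log2 FPKM, other size factors, filters and thresholds, a robust fit, each library left out, a replicate block, and the library name suffix as a covariate. Leaving out aged bleo 4 with aged sham 4, and using aged bleo 1 to 3 alone, were added after the data were seen.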

Additional observations from a re-analysis of the deposited data

Results flagged for a closer look

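In 28 sets of values (the CPM of the factors and the ratios, by group) the highest and lowest library were compared with the rest by Dixon's test. Chance flags about 1 in 20 groups, or 1.4 here, and 2 were found. For Prrx1, aged bleo 4 was at 214.9 CPM, far below the next aged bleo library at 266.9 CPM. For Sox4, aged bleo 2 was at 86.47 CPM and the next aged bleo library at 118.7 CPM. When single libraries were left out, Sox4 stayed between 1.56 and 1.74 and Prrx1 between -0.32 and -0.20 on the log2 scale of change.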

How the results depend on the processing

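Over 23 alternatives, 4 factors were called higher in all but the stricter thresholds, where 3 were, and 1 was called lower in all but the suffix covariate. Snai1 lay between 1.69 and 2.22, Snai2 between 0.84 and 1.24, Sox4 between 1.42 and 1.74, Tcf4 between 0.68 and 0.78, and Twist2 between -1.52 and -0.95 on the log2 scale. The count of genes called was 1785 (960 higher, 825 lower) with limma on log2(FPKM + 1), which shrinks low genes, 2158 (1224 higher, 934 lower) at thresholds of 0.05 for the FDR and 2 for the fold change, where Tcf4 was the factor lost, and 6394 (3153 higher, 3241 lower) with the library name suffix as a covariate. That last fit sets aged sham against aged bleo 4 alone. In it 2 factors were called lower, as Zeb1 was at -0.98 (edgeR FDR 8.33e-04), and Zeb2 turned to -0.12. Twist1 turned to 0.032 with aged bleo 1 to 3 only, and with single libraries left out it lay between -0.31 and 0.034, turning without aged sham 1. The Sox11 over Sox4 difference was -0.79 on the CPM scale (exact permutation p = 0.143). With FPKM + 0.1 the Sox11 over Sox4 ratio follows Sox4, as given above. The causes of the other shifts were not tested.

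With each library left out in turn, 3525 to 4597 genes were called, 1876 to 2314 higher and 1639 to 2283 lower, with 4 factors higher and 1 lower each time. The ratio differences were 1.09 to 1.44 for Twist, 0.54 to 0.80 for Snail, -0.74 to -0.63 for ZEB, and -1.62 to -1.45 for SoxC, where the added 0.1 exceeds Sox11. Replicate numbers did not pair the libraries: same-numbered libraries correlated at -0.13 to 0.326, and 1 of 4 aged sham libraries correlated best with its own number. With a replicate block 3536 genes were called, and again 4 factors higher and 1 lower. At 5 to 43 counts per library, Sox11 was below the count minimum.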
